A study of Mus musculus with 18 samples.

Results

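Cells carrying transcripts of Pax7, the paired-box factor that marks muscle stem cells, were followed in a droplet single-cell library of adult mouse muscle. The library, titled adult satellite cells, held cells of the tibialis anterior of 3-month-old Pax7-ZsGreen mice. In this strain a green reporter follows Pax7. Unique molecular identifiers (UMIs) each stand for 1 captured transcript. A barcode was taken as a cell when it held at least 500 UMIs and at least 10% of the 99th percentile among the 3000 barcodes with most UMIs (33680), with under 10% from mitochondrial genes. Of 579 such cells, 431 carried at least 1 Pax7 UMI (74.4%, exact binomial 95% interval 70.7 to 77.9%). The 193 members described here were chosen by their measured UMIs of 4 genes: they carried a Pax7 UMI and 0 UMIs of the endothelial genes Pecam1 and Cdh5 and of the leukocyte gene Ptprc (33.3% of cells, 29.5 to 37.3%). The other 238 cells with Pax7 carried at least 1 UMI of those 3 genes, and 148 cells had 0 Pax7 UMIs, of which 94 also had 0 UMIs of the 3 genes. In all, the single-cell libraries held 3510 cells, the other 2931 being iPax3 cells.

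Bulk RNA sequencing gave libraries that the choice of cells did not use. Those labelled Neo, titled neonatal satellite cells, came from hindlimb muscle of Pax7-ZsGreen mice at postnatal day 3. Fet, titled fetal myoblasts, and Emb, titled embryonic myoblasts, came from My5Cre Rosa26YFP mice (the strain as the labels spell it) at E14.5 and E10.5. Each of these groups had 3 libraries. The groups iPax3 and iPax7 (3 bulk libraries each, and iPax3 in droplets) were progenitors derived from pluripotent stem cells, sorted from embryoid bodies as Vcam1+Flk1- cells and expanded for 3 passages with doxycycline and bFGF. The labels do not say how many mice gave the adult library, nor whether bulk replicates came from separate animals or cultures, so p-values measure only the spread between these libraries. With 1 adult library there is no test between its cells. Levels of single cells are CPM, summed UMIs scaled to 1e6 UMIs, and their 95% intervals cover counting error only.

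Satellite cells lie between the muscle fibre and its basal lamina and are the stem cells that repair muscle. Pax7 is required to keep them, the calcitonin receptor Calcr and Notch signalling hold them quiescent, M-cadherin (Cdh15) and Vcam1 attach them to fibres and other cells, and Chodl is a lectin-domain membrane protein used as a marker. On activation they express Myf5 and Myod1, the determination factors, and then Myog on the way to differentiation.

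The marker check went against using Pax7 UMIs to set these cells apart. Calcr, Cdh15, Chodl and Vcam1 together took 0.0397% of UMIs in members and 0.0353% in cells with no Pax7 UMI. In 83745 barcodes of at most 30 UMIs, too small to be taken as cells, they took 0.0407%. These small barcodes held 429478 UMIs in all, so the sum does not show likeness there gene by gene. Pax7 itself stood at 181 CPM in members (401 UMIs), where the rule fixed it above 0, at 146 CPM over all 579 cells, and at 170 CPM in the small barcodes (interval 133 to 214). The members are therefore called by their rule and are given no cell type name.

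Most members carried very few Pax7 UMIs. A single UMI was found in 88 members, 2 in 53, 3 in 29 and at least 4 in 23, with 11 as the highest. Members with 1 Pax7 UMI, just inside the rule, had a median total of 8346 UMIs, against 6307.5 in the cells with none, just outside it. Median totals were 10234 UMIs in members (range 3394 to 38593), 15284.5 in the Pax7 cells with Pecam1, Cdh5 or Ptprc, and 6307.5 in cells at 0 Pax7. Detected genes had medians of 2125, 2713.5 and 1574 in the same order, and mitochondrial UMIs took 3.77, 3.76 and 3.73%.

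The share of cells with a Pax7 UMI followed depth. It was 47.9% in the shallowest of 8 depth bins (3394 to 4909 UMIs, 73 cells) and 100% in the deepest (22415 to 97098 UMIs, 73 cells). If every cell had Pax7 at the library's common rate, 45.0 and 98.7% would carry a UMI in those bins, and 440.7 cells in all, against 431 observed. The level itself had no order over the bins, from 112 to 172 CPM. The largest distance from the common rate was in the second bin, with 44.4% observed (interval 32.7 to 56.6%) and 57.3% at the common rate. Once every cell was thinned to 3394 UMIs, the total of the shallowest cell so that none was left out, the variance of Pax7 over all cells was 1.01 times its mean, where counting alone gives 1.

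**Figure D1:**
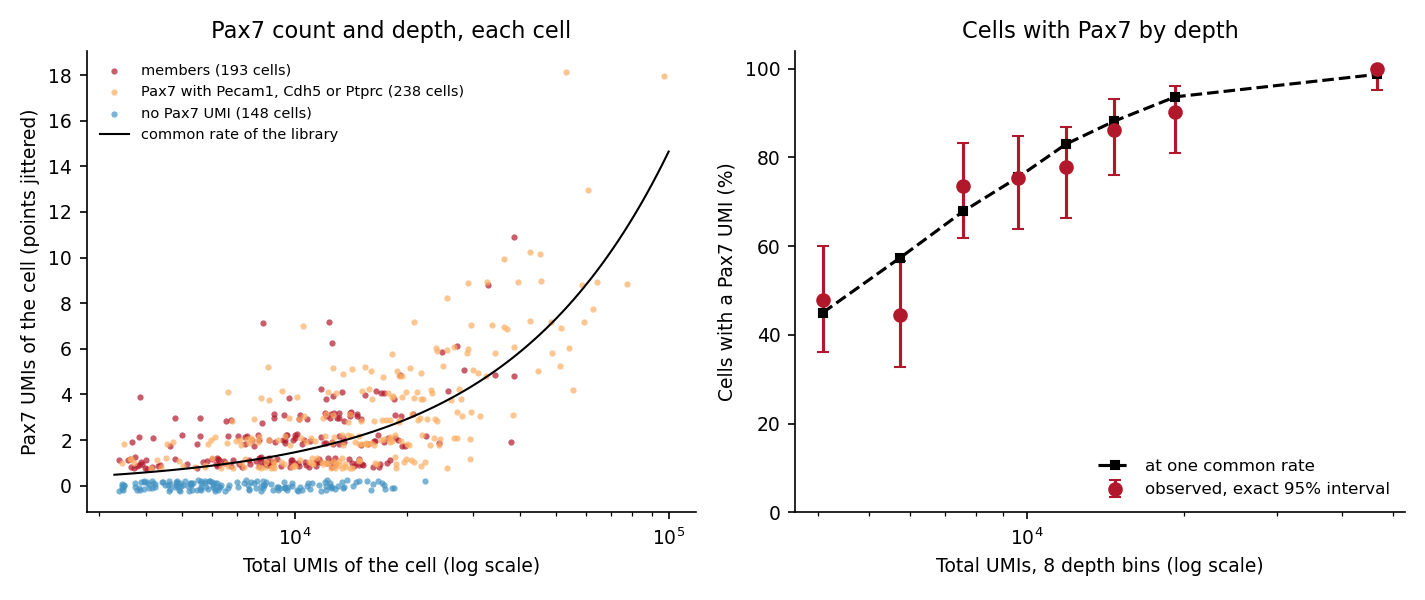
Left, Pax7 UMIs (points jittered) against total UMIs of each of the 579 cells on a log scale, with the library's common rate of 146 CPM as a line. Members and the Pax7 cells with another gene of the rule scatter around the line, and the cells without Pax7 reach no more than 22349 UMIs. Right, the percent of cells with a Pax7 UMI in 8 bins of total UMIs with exact 95% intervals, beside the percent at the common rate, from 47.9% against 45.0% to 100% against 98.7%.

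The requirement of 0 UMIs of Pecam1, Cdh5 and Ptprc acted on depth as well. Of the 238 Pax7 cells it set aside, 160 carried Pecam1, 118 Cdh5 and 38 Ptprc. Cells with any of the 3 genes made up 30.1% of the shallowest bin and 84.9% of the deepest, and members made up 31.5 and 15.1%. The cells set aside had the muscle markers at levels close to those of members, with Calcr at 21.7 CPM in members against 17.0 in cells set aside, Cdh15 at 60.2 against 55.9, Chodl at 161 against 142 and Vcam1 at 154 against 151 CPM.

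Of the receptors and adhesion molecules, Calcr (chromosome 6, 3685680 to 3764714 of GRCm38) stood at 21.7 CPM in members (interval 16.0 to 28.8), 18.0 in all cells at 0 Pax7 and 19.2 in those also at 0 Pecam1, Cdh5 and Ptprc. The ratio of members to the last group was 1.13 (0.60 to 2.27). Cdh15 (chromosome 8, 122847966 to 122867397) stood at 60.2 CPM in members, 52.2 in all cells at 0 Pax7 and 59.2 in those without the 3 genes, a ratio of 1.02 (0.71 to 1.48). Both intervals include 1, and at this depth a difference within them was not detectable.

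Chodl (chromosome 16, 78930948 to 78951733) stood at 161 CPM in members, 133 in all cells at 0 Pax7 and 157 in those without the 3 genes. Its ratio was 1.22 (1.01 to 1.48) against all cells at 0 Pax7 and 1.03 (0.83 to 1.29) once both sides lacked the 3 genes. Vcam1 (chromosome 3, 116109949 to 116129688) stood at 154, 151 and 136 CPM, with ratios of 1.02 (0.85 to 1.23) and 1.13 (0.89 to 1.44). Of the 4 markers beside Pax7, Chodl alone had an interval above 1, and only against the wider group.

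In percentage points, shares of cells with a UMI differed more at full depth than after thinning for Calcr, Chodl, Vcam1 and Cdh15. Thinning lowers every share, and in proportion the difference of Chodl was no smaller after it. At full depth 74.6% of members had Chodl and 21.8% Calcr, against 62.2 and 11.5% of all cells at 0 Pax7. Thinned to 3394 UMIs, the shares were 42.0 and 6.2% in members and 32.4 and 3.4% in cells at 0 Pax7. For Vcam1 they were 37.8 and 36.5%, and for Cdh15 18.1 and 16.2%. After thinning, 27.5% of the 193 members had none of the 4 markers, 44.0% had 1, 25.4% had 2 and 3.11% had 3. In the 148 cells at 0 Pax7 these shares were 34.5, 45.9, 16.2 and 3.38%.

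**Figure D2:**
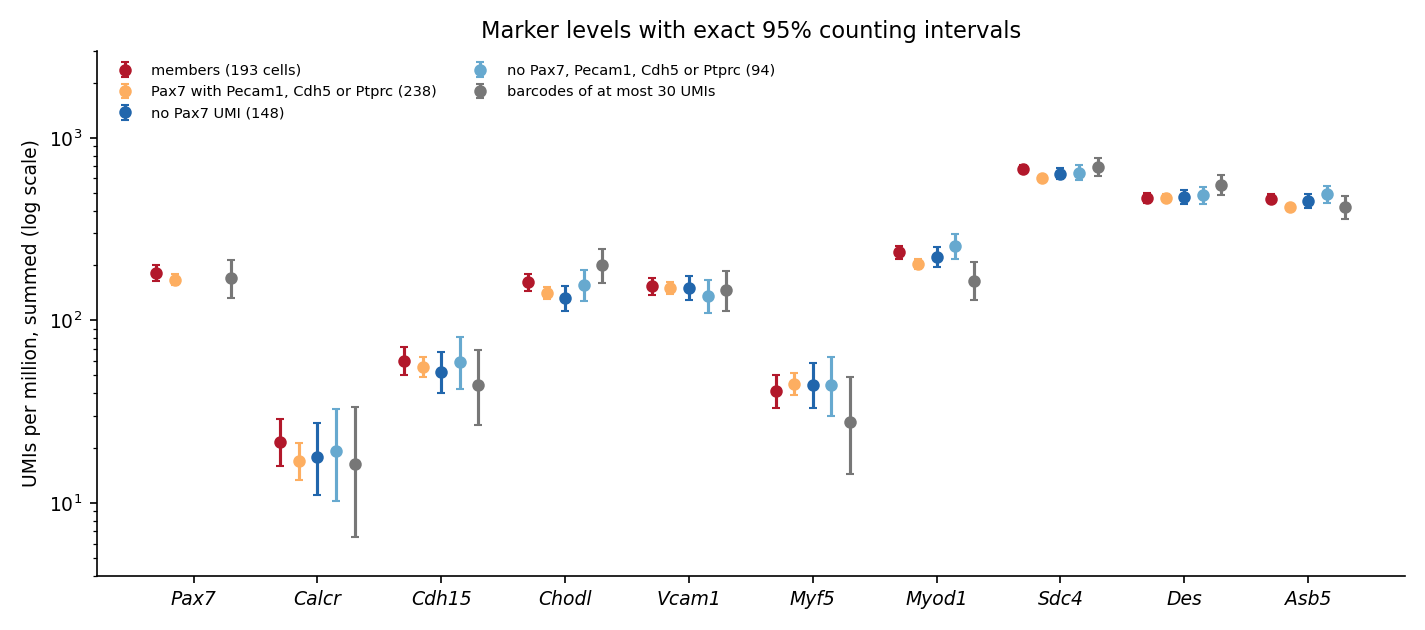
CPM (log scale) of Pax7 and 9 other muscle genes with exact 95% counting intervals, summed over the 193 members, the 238 Pax7 cells with Pecam1, Cdh5 or Ptprc, the 148 cells at 0 Pax7, the 94 of these without the 3 genes, and the barcodes of at most 30 UMIs. Pax7 has no point in the cells chosen for having none. For every other gene the 4 groups of cells lie close together, such as Vcam1 at 154, 151, 151 and 136 CPM.

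Over 25 satellite cell genes, 22 besides Pax7 had the 20 summed UMIs needed for a ratio. Against all cells at 0 Pax7 none was past 2-fold, the ratios ran from 0.76 to 1.76 and their median was 1.06, beside 0.996 over all 6746 genes measured. Of all those genes 4.51% were past 2-fold, 2.59% higher and 1.91% lower in members. Against the cells without the 3 genes the median was 1.04, beside 1.02 over 6255 genes of which 6.75% were past 2-fold (4.83% higher and 1.92% lower), and again no satellite cell gene was past it. The most abundant were Sdc4, a syndecan co-receptor, at 673, 637 and 646 CPM in members, all cells at 0 Pax7 and those without the 3 genes, the tetraspanin Cd82 at 479, 521 and 548 CPM, the intermediate filament Des at 470, 475 and 486 CPM, and Asb5, an ankyrin-repeat protein, at 465, 450 and 490 CPM. The kinase Musk, which organises the neuromuscular junction, had the highest ratio against all cells at 0 Pax7, with 27.1 CPM in members and 15.4 CPM in those cells.

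The determination factors did not separate the groups. Myf5 (chromosome 10, 107482908 to 107486134) stood at 41.2 CPM in members, 44.5 in all cells at 0 Pax7 and 44.4 in those without the 3 genes. Myod1 (chromosome 7, 46376474 to 46379099) stood at 236, 223 and 255 CPM, with a ratio of 1.05 (0.91 to 1.23) to all cells at 0 Pax7. In barcodes of at most 30 UMIs Myod1 was lower than in members, at 165 CPM (ratio of members to barcodes 1.43, 1.11 to 1.85), and Myf5 stood at 27.9 CPM (1.47, 0.80 to 2.96). Myog was scarce, at 9.0 CPM in members against 2.6 and 4.4 CPM. Against all cells at 0 Pax7 it was the 1 of 10 measured commitment genes above 2-fold (ratio 3.52). Mef2c was the 1 below (0.418). Of all 6746 genes 2.59% were past 2-fold higher and 1.91% lower. Among the 10 intervals 1 lay above 1 and 1 below, and against the cells without the 3 genes all included 1. Members with at least 2 Pax7 UMIs held 18 Myog UMIs, and those with 1 held 2. Myod1 UMIs were found in 135 members, 44 of them with Myf5 and 91 without, while 21 had Myf5 alone and 37 neither.

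Among 16 measured Notch and quiescence genes none was past 2-fold, and the median ratio was 1.03 against all cells at 0 Pax7. The cell cycle inhibitor Cdkn1a was at 1162 CPM in members, 1128 in all cells at 0 Pax7 and 1119 in those without the 3 genes, and the antiproliferative Btg2 at 827, 830 and 840 CPM. The Notch target Heyl was at 47.5, 55.6 and 63.7 CPM. Of 24 cell cycle genes 8 were measured, with a median ratio of 1.20 against all cells at 0 Pax7. Of these 8 genes 2 were above 2-fold in members, beside 2.59% of all 6746 genes measured. The thymidylate synthase Tyms was at 8.14 CPM in members (18 UMIs) and 1.71 CPM in cells at 0 Pax7 (2 UMIs), a ratio of 4.76 (1.14 to 42.3), and the ribonucleotide reductase subunit Rrm2 at 7.69 and 2.57 CPM (17 and 3 UMIs), a ratio of 2.99 (0.87 to 16.0). Stmn1, a tubulin-binding protein, was at 155 CPM in members and 118 CPM in cells at 0 Pax7 (1.31, 1.07 to 1.61). Against the cells without the 3 genes no cell cycle gene measured had an interval above 1. Of the mitotic genes, Mki67 was at 0.9 CPM in members and in cells at 0 Pax7, and Ccnb1 and Ccnb2 had no UMI in either, where 3 UMIs would be the limit. Others were less scarce: over all cells of the library Ube2c had 55 UMIs (6.96 CPM) and Top2a 34 UMIs (4.30 CPM).

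Immediate early genes, which answer stimulation within minutes, took 1.4% of UMIs in members, 1.39% in all cells at 0 Pax7 and 1.38% in barcodes of at most 30 UMIs. Fos stood at 3499, 3356 and 3192 CPM in these, Junb at 1681, 1607 and 1381 CPM, and Egr1 at 992, 939 and 1167 CPM. Heat shock genes took 3.2, 3.2 and 3.12% of UMIs, led by Hsp90ab1 at 7199, 7165 and 6736 CPM and with the inducible Hspa1a at 2565, 2688 and 2410 CPM. Over 22 immediate early and 13 heat shock genes none was past 2-fold between members and cells at 0 Pax7, with median ratios of 0.988 and 1.002.

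Matrix genes of the niche included Sparc, a collagen-binding glycoprotein, at 2129 CPM in members, 1972 in all cells at 0 Pax7 and 1910 in those without the 3 genes. The basement membrane proteoglycan Hspg2 was at 193, 193 and 175 CPM. The 25 measured genes of this list had a median ratio of 1.07 against all cells at 0 Pax7, none past 2-fold. Of 20 growth factor and feedback genes 2 were above 2-fold, beside 2.59% of all 6746 genes measured. Their median ratio was 1.10. The most abundant were Igfbp6, a binding protein of insulin-like growth factors, and Fgfr1, a fibroblast growth factor receptor. Igfbp6 stood at 629 and 572 CPM and Fgfr1 at 214 and 218 CPM in members and in cells at 0 Pax7.

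Markers of other cell types were present in members. Summed over all members, the endothelial and leukocyte lists lay near their levels in the small barcodes, and the fibroblast list lay below. The endothelial list without Pecam1 and Cdh5 took 0.239% of members' UMIs, 0.306% in all cells at 0 Pax7, 0.219% in those without the 3 genes and 0.251% in barcodes of at most 30 UMIs. All 14 of its genes were found in members, and a thinned member held 2 to 39 of its UMIs. The fatty acid carrier Fabp4 was found in 100% of members, at 1256, 1591, 1087 and 1334 CPM in that order of groups. The leukocyte list without Ptprc took 0.445, 0.443, 0.403 and 0.428%, with 14 of 16 genes found in members, S100a8 and S100a9 at 0, and 4 to 55 UMIs per thinned member. The invariant chain Cd74 was at 1770, 1723, 1555 and 1723 CPM.

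The fibroblast list took 0.493% of members' UMIs, 0.492% in all cells at 0 Pax7, 0.480% in those without the 3 genes and 0.570% in the small barcodes, with 16 of 16 genes found in members and 4 to 103 UMIs per thinned member. Decorin (Dcn) was at 862, 759, 711 and 1069 CPM. Members were not alike in these lists. In the clusters described below, the fibroblast list took 0.393% in the 171 members of unnamed clusters and 1.15% in the 22 of named clusters. The endothelial list took 0.225 and 0.331% in these, and the leukocyte list 0.414 and 0.649%. The lists served to name the clusters, so this split is a description. Tenocyte markers had 7 of 9 genes found in members (Mkx and Kera at 0), mural 12 of 12, Schwann 9 of 10 with Sox10 at 0, and erythroid 1 of 5. The 4 lists took 0.034, 0.052, 0.011 and under 0.001% of members' UMIs in that order, and 0.032, 0.068, 0.012 and under 0.001% in cells at 0 Pax7. The part of this RNA in the muscle marker counts of single cells was not tested.

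Over 1670 genes of at least 50 CPM, members and all cells at 0 Pax7 had log2 levels correlated at r = 0.988, and 99.9% of the genes were within 2-fold. For cells without the 3 genes r was 0.985, and for the barcodes of at most 30 UMIs 0.985, with 99.5% of genes within 2-fold in each. For iPax3 cells r was 0.544 and 48.1% of genes were within 2-fold. These correlations are across genes, which share the library and its depth, and are given as a description. Of 982 genes with at least 100 CPM in either group, 0 were higher by 2-fold in members and 1 was lower (0.102%), against all cells at 0 Pax7. Against the cells without the 3 genes it was 0 higher and 6 lower of 987 (0.608%).

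**Figure D3:**
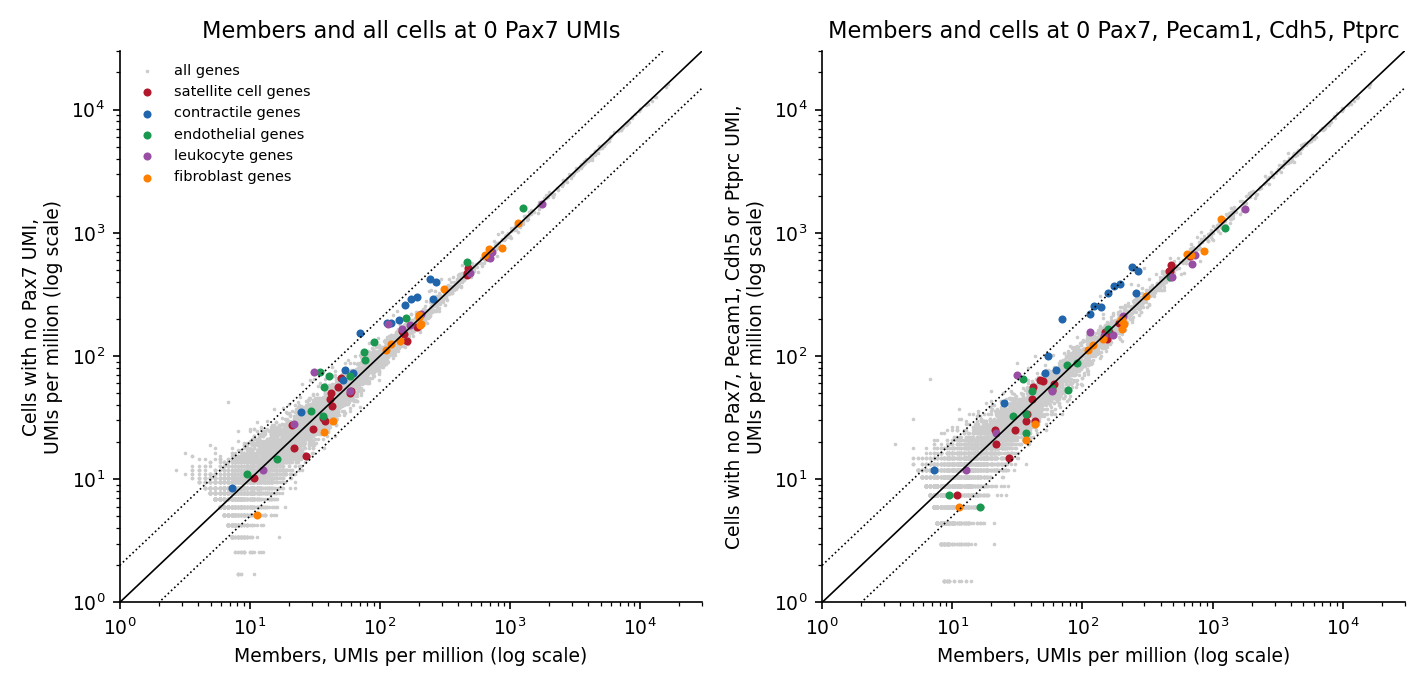
CPM of each gene in members (x axis) against all 148 cells at 0 Pax7 (left) and the 94 of these without Pecam1, Cdh5 and Ptprc (right), on log scales, for genes with UMIs in both groups. The solid line marks equal levels and the dotted lines 2-fold. Satellite cell genes lie on the solid line, with medians of 1.06 and 1.04, and contractile genes lie towards the cells without Pax7, at medians of 0.67 and 0.55.

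Among genes of at least 100 CPM, the 12 that stood highest in members over the cells without the 3 genes, ranked by the lower bound of the ratio, were all under 2-fold. Hmox1, the heme-degrading oxygenase, was at 798 CPM in members and 585 CPM in those cells, a ratio of 1.36 (1.22 to 1.53). The lipid carrier Apod was at 201 CPM in members and 132 CPM in those cells (1.53, 1.21 to 1.94) and the TGF-beta pathway repressor Skil at 110 CPM in members and 71.1 CPM in those cells (1.55, 1.14 to 2.16). The others were Dad1, Cxcl1, Hsd17b10, H2-Ab1, Dcn, Retnla, Bgn, Polr2e and Gal, at ratios of 1.21 to 1.42. They include fibroblast genes (Dcn and the proteoglycan Bgn), an antigen presentation gene (H2-Ab1) and a chemokine (Cxcl1). Of all 6255 genes measured, 172 had an interval above 1 and 182 below 1. Intervals at 95% leave out 1 for some genes even without a difference. The 12 genes were picked by these bounds, so their intervals are a description. A single member held 165 of the 1543 H2-Ab1 UMIs of members, and a single member 113 of the 1262 Retnla UMIs. Ratios without the top member were not computed.

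The 12 genes lowest in members, ranked by the upper bound among genes of at least 100 CPM, were mostly genes of the muscle fibre. The calcium buffer of fast fibres Pvalb was at 70.1 CPM in members and 198 CPM in cells without the 3 genes (0.35, 0.28 to 0.45), skeletal actin Acta1 at 242 CPM in members against 527 CPM (0.46, 0.40 to 0.53), the troponin Tnnc2 at 174 CPM in members against 370 CPM, and the myosin light chain Mylpf at 156 CPM in members against 323 CPM. Myl1, Tpm2, Ckm, Tpm1 and Tnnt3 had ratios of 0.48 to 0.56. The remaining genes were the chemokine Ccl4 (136 CPM in members against 306 CPM) and the smooth muscle genes Acta2 and Myl9 (0.57 and 0.62). Of 15 contractile genes measured, 5 were past 2-fold lower in members, none higher, with a median ratio of 0.55. Of all 6255 genes measured 1.92% were past 2-fold lower.

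This difference rested on very few cells. Contractile genes took 10.55% of the UMIs of 1 cell at 0 Pax7 (857 of 8126) and 7.48% of another (297 of 3972), both among the 94 cells without the 3 genes. No other cell at 0 Pax7 passed 0.979%, and no member passed 0.527%. Medians per cell were 0.190% in members and 0.183% in all cells at 0 Pax7. With both cells left out, a choice made after the values were seen, the median log2 ratio of contractile genes was 0.03, against -0.87 with them, and 0 of 15 genes were past 2-fold. For Ccl4, 125 of 207 UMIs lay in 1 cell, and without it members had 136 CPM against 124, a ratio of 1.10 (0.86 to 1.42). For Acta2 and Myl9, 172 of 351 and 124 of 258 UMIs lay in 1 cell, and without it the ratios were 1.09 and 1.16.

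Members with more Pax7 were not richer in other satellite cell genes. The 105 members with at least 2 Pax7 UMIs had 11.1 ± 3.87 thinned UMIs of the other 24 satellite cell genes (SD over cells), and the 88 with 1 had 11.8 ± 4.57. Their median totals were 12437 and 8346 UMIs. Calcr was at 25.2 and 15.3 CPM in these (ratio 1.64, 0.84 to 3.47), Vcam1 at 169 and 127 CPM (1.33, 1.05 to 1.70), Chodl at 165 and 155 CPM, Cdh15 at 49.7 and 79.2 CPM (0.63, 0.44 to 0.90) and Myod1 at 226 and 253 CPM. Of 5423 genes 4.35% were past 2-fold. When cells were sorted by Pax7 UMIs after thinning, 45 cells with at least 2, 165 with 1 and 369 with 0 held means of 11.0, 11.2 and 11.0 UMIs of those 24 genes.

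Variation between members was near counting error for most genes. After thinning, the ratio of variance to mean had a median of 1.03 over 1471 genes with a mean of at least 0.2 UMIs, and 3.87% of them were above 1.5. The highest was gelsolin (Gsn) at 11.8, where 40 members held at least 5 UMIs, the median was 3 and the highest 49. Malat1 was at 7.90, Hspa1a at 6.31, Fos at 5.23, the metallothionein Mt2 at 4.90 and Dcn at 4.82. Among muscle genes Asb5 was at 2.59, with 13 members at 5 or more UMIs, Myod1 at 2.28, with 6, and Sdc4 at 2.01, with 20. Chodl (1.03), Vcam1 (1.07) and Cdh15 (1.09) stayed near 1.

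Clustering of all 579 thinned cells, without the satellite cell, myogenic and Notch genes and without the 3 genes of the rule, gave 6 clusters. In 3 of them, markers of another cell type were at least 2-fold above the rest: 13 of 16 endothelial genes in 53 cells, 13 of 16 fibroblast genes in 44 cells and 12 of 17 leukocyte genes in 19 cells, called endothelial-like, fibroblast-like and leukocyte-like. The other 463 cells stayed unnamed. Members numbered 3, 17 and 2 in the named clusters and 171 in the unnamed ones, where the rule itself removes cells with endothelial or leukocyte genes. Of members 11.4% lay in named clusters, against 25.7% of all cells at 0 Pax7 and 16.0% of those without the 3 genes.

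Pax7 UMIs were found in 66.0% of endothelial-like cells (median total 8335 UMIs), 68.2% of fibroblast-like (9676.5) and 68.4% of leukocyte-like cells (18212), against 76.2% of unnamed cells (11156). Thinned, the shares were 30.2, 29.5, 31.6 and 37.8%. Endothelial cells, fibroblasts and leukocytes are not known for Pax7, and the part of free RNA in these shares was not tested. Summed Pax7 was higher in unnamed than in named clusters, at 153 and 120 CPM (ratio 1.27, 1.09 to 1.5).

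Among the other muscle genes left out of the clustering, 4 chosen after their values were seen had higher ratios than Pax7. Chodl stood at 162 CPM in unnamed and 80.6 in named clusters (2.00, 1.66 to 2.44), Myod1 at 238 and 126 CPM (1.88, 1.62 to 2.19), Myf5 at 48.0 and 26.9 CPM (1.78, 1.29 to 2.54) and Asb5 at 474 and 271 CPM (1.75, 1.58 to 1.94). Of 25 satellite cell genes, 11 had an interval above 1, 3 below (Sdc3, Cd34 and Itgb1) and 11 included 1. The median ratio was 1.22 over this list, 1.03 over 10 commitment genes and 0.95 over 19 Notch and quiescence genes. These counts and medians have no value over all genes beside them, so nothing particular to the lists is read from them. Cd34, a sialomucin that endothelial cells and fibroblasts carry too, was at 133 and 195 CPM. Calcr had 19.3 and 15.1 CPM, with an interval that included 1 (0.81 to 2.09).

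Levels of these genes are also given within the members. The 171 members of unnamed clusters had Chodl at 174 CPM (155 to 193), Myod1 at 248 (226 to 272), Asb5 at 486 (455 to 518) and Pax7 at 187 CPM. The 22 members of named clusters had Chodl at 81.8 CPM (52.4 to 122), Myod1 at 153 (112 to 205), Asb5 at 331 (268 to 403) and Pax7 at 147 CPM. These genes were named from the contrast over all cells, which holds the members, and the rule set Pax7 above 0 in every member, so the values are a description. Between members and all cells at 0 Pax7 of the unnamed clusters alone, satellite cell genes other than Pax7 took 0.337 and 0.346% of UMIs.

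**Figure D4:**
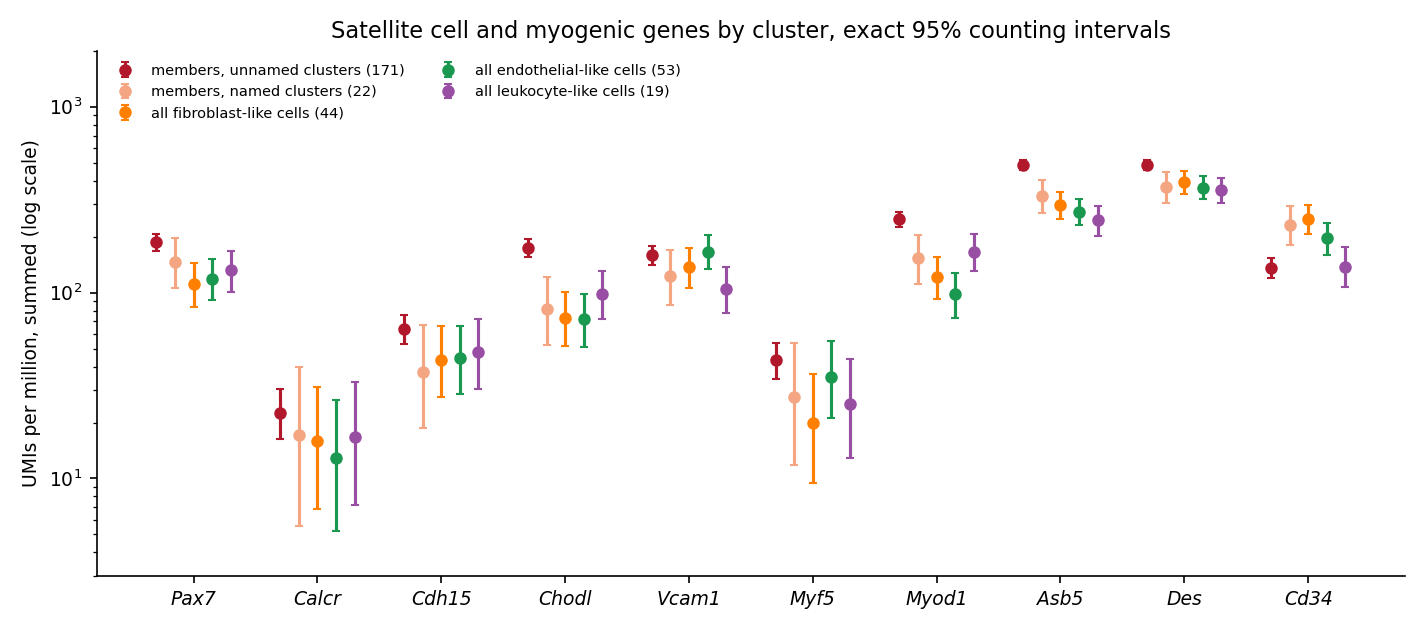
CPM (log scale) of 10 muscle and satellite cell genes with exact 95% counting intervals, in the 171 members of unnamed clusters, the 22 members of named clusters, and all fibroblast-like (44), endothelial-like (53) and leukocyte-like (19) cells. Chodl, Myod1 and Asb5 are highest in members of unnamed clusters, at 174, 248 and 486 CPM, and Cd34 is highest in fibroblast-like cells.

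The iPax3 cells, of another origin and library, are set beside the members without a test. A Pax7 UMI was found in 2 of 2931 iPax3 cells (0.0682%, interval 0.00826 to 0.246%), at a median total of 11716 UMIs. Members and iPax3 cells had Calcr at 21.7 and 0.6 CPM, Vcam1 at 154 and 19.9 CPM, Myod1 at 236 and 26.4 CPM, Cdh15 at 60.2 and 66.5 CPM, and Myog at 9.0 and 124 CPM. Of the barcodes, 1 was a cell in both libraries, and it was no member. A further matrix labelled as iPax3 cells held the adult barcodes over again: all 1520821 of its entries for them lay in the adult matrix and none was larger. It was used for no value.

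The markers were then tested in bulk libraries, where fewer cells of a type and less RNA per cell cannot be told apart. The libraries labelled Neo held little of their reporter's gene, with Pax7 at 0.414, 3.61 and 4.78 CPM, against 62.0, 44.5 and 33.9 CPM in Fet and 22.4, 31.8 and 28.4 CPM in Emb. The groups did not overlap, but the share of all genes that do the same was not computed. The log2 change in Neo was -3.81 ± 1.23 against Fet (approximate SE; edgeR quasi-likelihood test, adjusted p = 0.112) and -3.17 ± 1.19 against Emb (adjusted p = 0.0703), and neither passed 0.05. Totals were 3557117 to 16917199 counts in Neo, 516504 to 32017618 in Fet and 11804719 to 18266914 in Emb. All 15 libraries share the estimate of spread, among them iPax7 replicate 1, whose Pax7 of 0.980 CPM stands apart from 119 and 387 CPM in its group. Fits of the Neo and Fet libraries alone gave an adjusted p of 0.0147 for Pax7, and DESeq2 gave 0.0135 against Fet and 0.0253 against Emb.

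Of the markers in bulk, Calcr was at 4.55, 0 and 0 CPM in Neo, against 1.94, 0.0312 and 0 in Fet and 0, 0.109 and 9.28 in Emb. In each group 1 library carried nearly all of it. Cdh15 was at 0.887, 32.2 and 3.09 CPM in Neo, against 92.9, 54.0 and 42.6 in Fet and 19.9, 38.5 and 40.6 in Emb. Chodl was at 34.8, 35.0 and 166 CPM in Neo, against 71.6, 61.7 and 64.4 in Fet and 8.13, 24.6 and 18.9 in Emb. Vcam1 was at 92.0, 88.5 and 86.6 CPM in Neo, against 139, 246 and 181 in Fet and 45.4, 98.8 and 137 in Emb. Neo lay below all Fet libraries in Cdh15 and Vcam1 and above all Emb libraries in Chodl. Such separation was not counted over all genes, so it is not read as particular to these markers. None of these 4 genes passed the edgeR test in either comparison (adjusted p from 0.227 to 0.969).

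Myf5 was at 2.01, 0.722 and 5.90 CPM in Neo, against 11.6, 10.1 and 8.23 in Fet and 23.5, 25.1 and 33.5 in Emb. It fell against Emb (log2 change -3.20 ± 1.003, edgeR adjusted p = 0.0372) and did not pass against Fet (-1.61 ± 0.996, adjusted p = 0.417). The call against Emb was lost without Neo replicate 1 or 2 or Emb replicate 2 or 3 (adjusted p from 0.0608 to 0.107), with the replicate number as a block (0.0529), without the low-count filter (0.114) and with the 2 groups alone (0.160). Myod1 was at 12.8, 11.0 and 4.50 CPM in Neo, against 94.9, 32.5 and 31.2 in Fet and 6.18, 28.7 and 41.3 in Emb, and passed in neither comparison (adjusted p = 0.439 and 0.540).

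Over all 17571 genes tested, 2.37% were called between Neo and Fet (1.37% higher and 1% lower in Neo), and 20.1% between Neo and Emb (11.7% higher and 8.43% lower in Neo). Of the 25 satellite cell genes, 1 was higher than in Fet (Sdc4, log2 change 2.62 ± 0.45, edgeR adjusted p = 0.00546) and none lower. Against Emb 7 were higher, among them Sdc4, Cd34 and Asb5, and 1 lower (Myf5). Medians over the list were -0.43 and 0.67, beside -0.14 and 0.00 over all genes tested. With the other scaling (RLE) the log2 change of a gene moved by a median of 0.10 and 0.15. The medians over all genes were then -0.04 and 0.06.

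Endothelial markers were read in the same libraries. Of 16 endothelial genes 3 rose in Neo against Fet (Cdh5, Fabp4 and Ly6c1) and 16 against Emb. Pecam1 was at 679, 719 and 711 CPM in Neo, against 36.8, 66.5 and 103 in Fet and 8.81, 0.547 and 0.914 in Emb. Its log2 change against Fet was 3.57 ± 1.39 and did not pass (edgeR adjusted p = 0.178). Fabp4 was at 2785, 2117 and 2189 CPM in Neo, against 32.9, 58.2 and 74.1 in Fet (log2 change 5.64 ± 0.48, edgeR adjusted p = 1.1e-05). Leukocyte markers had 1 of 17 higher against Fet and 12 of 17 against Emb, fibroblast markers 1 and 13 of 15, tenocyte markers 0 and 7 of 9, and mural markers 1 and 6 of 11. Immediate early genes had 14 of 22 higher against Fet and 22 of 22 against Emb, and heat shock genes 7 of 13 in each comparison, with 1 lower against Emb. Cell cycle genes had 6 of 24 lower against Fet and 13 of 24 against Emb, and none higher. The part of other cells and of these genes in the levels of Pax7 and its companions in Neo was not tested.

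**Figure D5:**
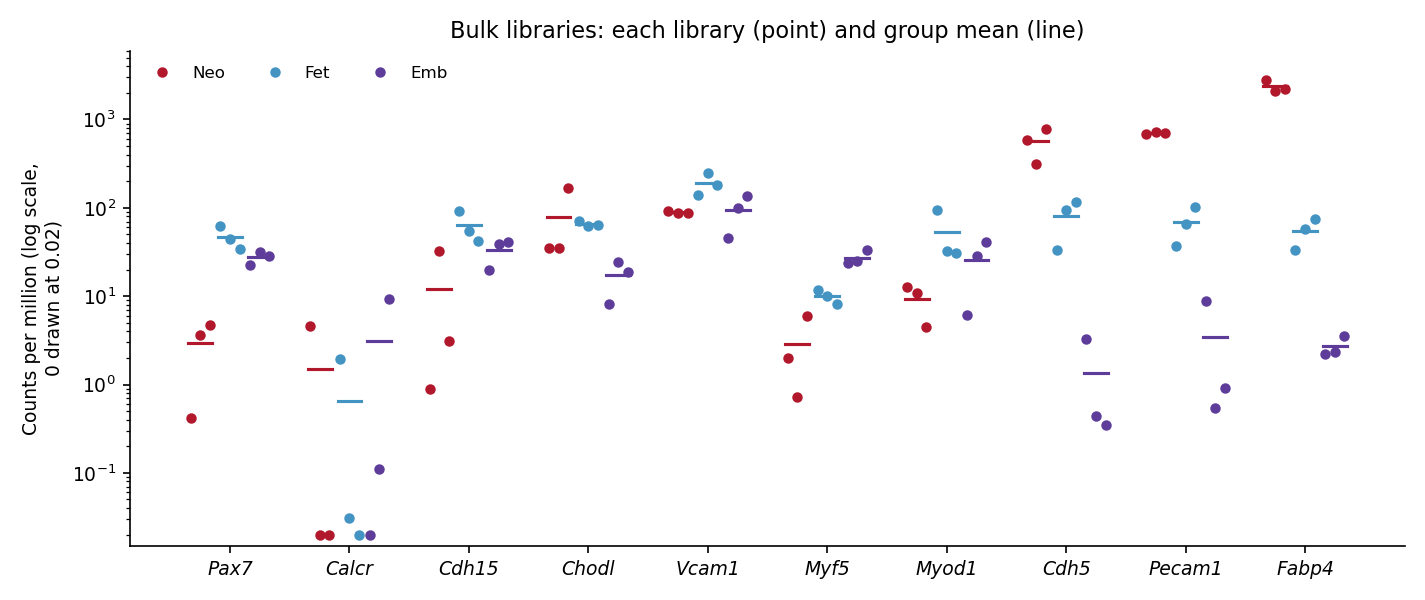
CPM (read counts scaled to 1e6 counts of the library) on a log scale (0 drawn at 0.02) of the 5 markers, Myf5, Myod1 and the endothelial genes Cdh5, Pecam1 and Fabp4 in each of the 3 Neo, 3 Fet and 3 Emb libraries, with group means as lines. Pax7 lies lowest in Neo, at 0.414 to 4.78 CPM, and Pecam1 highest in Neo, at 679 to 719 CPM.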

How the data were processed

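Droplet 3' libraries and bulk RNA libraries of mouse muscle progenitors were read from the deposited tables. Per the submitters' processing notes, the tools were CASAVA 1.8, HISAT2 2.0.2, Subread with featureCounts 1.4.6 and Cell Ranger 2.2.0 on mm10. The bulk files hold read counts per gene and the matrices UMI counts per gene and barcode, as deposited by the authors, not normalised. Strand setting and annotation are not given in the sources used here. Gene positions are from GENCODE M21 (GRCm38). Identifiers were named from the matrices and a gene name table (47576 of 47728).

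Cells and members followed the rule in the opening. Members and gene lists were chosen with earlier results of these data known. UMIs were summed over cells. CPM have exact Poisson intervals and ratios exact conditional intervals, with 3 UMIs as the floor for a 0 and 20 summed UMIs as the minimum for a ratio. Named genes were the 12 higher and 12 lower with the interval bound nearest 1 farthest from 1 and at least 100 CPM, plus the markers and the most abundant genes of lists. Cells were thinned to 3394 UMIs (seed 1). Scrublet in scanpy 1.11.5 called 23 cells doublets (6 members), which were kept.

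Clusters used thinned counts, 1000 variable genes, 10 components, 15 neighbours and Leiden resolution 0.5. The rule for naming clusters was settled after its results were seen, in the last of 3 versions. Asking for 3 markers among the 10 genes of highest fold named no cluster. The same among genes of at least 200 CPM named a contractile-like, an endothelial-like and a fibroblast-like cluster and left the leukocyte-like cells unnamed. The version used takes the class with the most markers at 2-fold or more (at least 3, and 1 among the top 10) and has no contractile class.

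Bulk counts were tested with edgeR 4.0.16 (R 4.3.3; TMM factors, filterByExpr, robust quasi-likelihood fit, 1 mean per group over 15 libraries) and Benjamini-Hochberg adjustment at 0.05, after a check on simulated counts. In it, 50 genes each were changed between Neo and Fet by 2-, 0.5-, 4- and 0.25-fold among 17438 genes, and 27, 16, 50 and 49 of them were recovered, with 5 false calls. The simulated counts had a fixed dispersion of 0.05 for every gene, which was not estimated from these libraries. The check therefore covers the working of the code and does not give the power or error rate in the real libraries. A first requirement of more than 80% recovery over all folds was not met, and the requirement was then set on the 4-fold changes. DESeq2 1.42.0 was an alternative. The pairing of replicate numbers was checked from deviations from group means, which correlated at -0.051 to 0.012 between libraries of the same number, so the numbers were not taken as pairs. No replicate pair held identical counts. Single-cell ratios were also checked on simulated counts (numpy 2.4.6, scipy 1.17.1, Python 3.11.15).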

Additional observations from a re-analysis of the deposited data

How the results depend on the processing

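The number of members was 105 with at least 2 Pax7 UMIs and 431 with no requirement on Pecam1, Cdh5 and Ptprc, against 193 in the rule. Genes past 2-fold numbered 304 against all cells at 0 Pax7 and 422 against those without the 3 genes. They numbered 177 and 217 when every cell was thinned, 554 and 837 against the 35 and 17 cells at 0 Pax7 that had at least the members' median total, and 30 and 53 with at least 50 summed UMIs. The median log2 ratio of satellite cell genes lay between -0.02 and 0.15 under every alternative run, against 0.08 and 0.05. The median log2 ratio of contractile genes, -0.57 and -0.87, was -0.15 and -0.06 against the deeper cells at 0 Pax7, and -0.06 and 0.032 without the 2 cells rich in contractile UMIs, the last with its sign reversed by the loss of those cells. The ratio of Vcam1 was 1.54 against the 17 deeper cells. Of 160 single-cell values recomputed, 147 stayed within their interval or within 1.5 times their count.

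In bulk, 416 genes were called between Neo and Fet and 3538 between Neo and Emb by edgeR. Between Neo and Fet it was 1658 with DESeq2, 1246 with the 2 groups' libraries alone, 263 with the replicate block, and 86 to 337 without 1 library each (86 without Fet replicate 2, 131 without Fet replicate 3, 161 without Neo replicate 2, 183 without Neo replicate 1 and 241 without Fet replicate 1). Between Neo and Emb it was 1496 with the 2 groups' libraries alone, 2478 with the replicate block and 2585 to 4834 without 1 library each. The replicate block also ended the call of Myf5 against Emb (adjusted p = 0.0529) and changed no other call of the 7 genes. Signs reversed among genes that passed in no fit: leaving out 1 library each, the log2 change of Calcr ran from -4.64 (without Neo replicate 1) to 6.29 against Fet and from -9.20 to 4.86 (without Emb replicate 3) against Emb, that of Chodl from -0.62 (without Neo replicate 3) to 0.81 against Fet, and that of Vcam1 from -0.30 (without Emb replicate 1; -0.01 without Neo replicate 1) to 0.54 against Emb. The cause was not tested. Depth limits the scarce genes most: Calcr had 48 UMIs in all members, and Fet replicate 1 held 516504 counts.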
